A study of Mus musculus with 6 samples.

Results

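Apolipoproteins are the protein part of the particles that carry lipid in plasma. The 10 genes described here, Apob, Apoa1, Apoa2, Apoa4, Apoa5, Apoc3, Apoe, Apom, Apof and Apon, were selected by symbol from the 35970 gene symbols of the deposited expression table, and each was taken as the sum of its transcripts. All 10 passed the filter on low values (mean TPM over the 6 libraries of 1 or more), as did 10598 genes in all, which were tested. TPM measure a transcript's part of its library after division by transcript length.

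The libraries came from Neurl1b CRISPRi mice (n = 3) and non-targeting mice (n = 3). Both groups were Fah-/-;dCas9+ mice, which lack the last enzyme of tyrosine breakdown and carry dCas9, a Cas9 without cutting activity that a guide RNA directs to a gene to hold its transcription down. In both groups 10 µg of a transposon plasmid with Fah, the ribosomal protein L10a fused to GFP, and a guide was injected into the tail vein with an AAV8 virus expressing Cre from the hepatocyte promoter TBG, nitisinone (7.5 µg/mL until then) was withdrawn, and livers were taken 4 weeks later. The guide was directed at Neurl1b, a gene for a ubiquitin ligase acting on Notch ligands, or was non-targeting. From 400 mg of liver, anti-GFP antibody then captured the ribosomes, so the RNA is that bound by tagged ribosomes of the hepatocytes that took up the plasmid, with any RNA carried over from other cells. Age and sex of the mice were not given in the sources used here.

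The liver makes most plasma apolipoproteins. Apob is the scaffold of the very low density particles (VLDL) that hepatocytes secrete, Apoa1 and Apoa2 are the main proteins of high density lipoprotein (HDL), and the smaller exchangeable proteins move between particles and regulate how fast their triglyceride is hydrolysed and how receptors take them up. Apoa1, Apoc3, Apoa4 and Apoa5 lie next to each other on chromosome 9, Apoe lies beside Apoc1 and Apoc4 on chromosome 7, and Apon lies beside Apof on chromosome 10.

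The sequences below belong to the 3 members whose transcripts are described in detail in what follows. For Apon, the member with the smallest p, and for Apoa5, whose transcripts begin at different starts, the RefSeq promoter is shown, from 250 bases before to 50 bases after the annotated start (GRCm38.p6). The Apon promoter is chr10:128253881-128254180 on the plus strand, and its capitals mark AGGTCA, a sequence bound by nuclear receptors. The Apoa5 promoter shown is chr9:46268383-46268682 on the plus strand, and its start is that of the transcript Apoa5-202. Its capitals mark TATAAA, the letters of a TATA box, 56 bases before that start. The other RefSeq promoter of Apoa5 has the same match 31 bases before its own start. Apoa5-201 starts 445 bases after the start shown. For Apoe the 30 bases across the last splice junction of the transcript Apoe-202 (GENCODE vM21, chromosome 7) are shown, with capitals for the 15 bases after the junction.
Apon promoter: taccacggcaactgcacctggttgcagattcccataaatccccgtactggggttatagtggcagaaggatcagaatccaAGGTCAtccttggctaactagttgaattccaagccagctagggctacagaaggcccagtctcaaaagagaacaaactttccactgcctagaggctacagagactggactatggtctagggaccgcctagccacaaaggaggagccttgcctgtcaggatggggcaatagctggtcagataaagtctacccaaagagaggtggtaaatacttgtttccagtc
Apoa5 promoter: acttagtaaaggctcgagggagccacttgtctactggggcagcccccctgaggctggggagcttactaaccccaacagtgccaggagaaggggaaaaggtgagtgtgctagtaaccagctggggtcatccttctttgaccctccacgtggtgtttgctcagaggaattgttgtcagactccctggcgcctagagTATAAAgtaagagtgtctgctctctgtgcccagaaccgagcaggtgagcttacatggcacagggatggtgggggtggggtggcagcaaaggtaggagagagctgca
Apoe-202 junction: ctctggtggagcaagGTGGCCCTGTCTCAA

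Promoters were found for 8 of the 10 members, 12 promoters in all, and for Apoc3 and Apof none was used. Read on both strands, AGGTCA occurred in 2 of the 12 member promoters (Apon and one of those of Apoa2) and in 16.3% of all 32851 promoters. TATAAA occurred in 5 of the 12 (Apoa2, Apoa5, Apob and Apoe) and in 13.6% of all, and CCAAT occurred in 2 (both Apoa2) and in 37.4% of all. CAAAGTCCA, a preferred site of the hepatocyte factor HNF4A, occurred in none of the 12 and in 0.475% of all. The 2 Apoa5 promoters overlap, so their match is the same site. No motif contains another, and a match describes the sequence only.

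The levels of the members spanned a wide range. Apoa2, Apoc3 and Apoe ranked 2, 4 and 6 by mean TPM among all genes and Apoa1 ranked 18. Apof, Apom, Apoa5, Apob, Apoa4 and Apon followed at ranks 397, 444, 453, 632, 868 and 1152. The 10 members together held 6.22%, 6.63% and 6.92% of all TPM in the Neurl1b CRISPRi mice and 6.17%, 6.90% and 7.76% in the non-targeting mice. These ranges overlap. Of that sum, Apoa2, Apoc3 and Apoe made up only 80.2% in non-targeting mouse 2, against 89.4% to 92.9% elsewhere.

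Some features of the libraries touch several results. Neurl1b itself was at 0.295, 0.351 and 0.307 TPM in the CRISPRi mice and at 1.22, 0.897 and 0.688 TPM in the non-targeting mice, which did not overlap (exact two-sided permutation p = 0.1, the smallest that 3 against 3 allows). Non-targeting mouse 2 stood apart in the acute phase genes Saa1 and Saa2, at 2670 and 2631 TPM against at most 103 and 94.9 TPM in the other 5 libraries. Summed hepatocyte markers, all 10 of them detected and Alb among them, were 34190 to 49920 TPM in the CRISPRi mice and 38137 to 88713 TPM in the non-targeting mice, highest in that same mouse. Stellate cell and fibroblast markers summed to 38.5 to 50.7 TPM in the CRISPRi mice and 17.1 to 31.4 TPM in the non-targeting mice, macrophage markers to 104 to 152 and 69.3 to 128 TPM, and endothelial markers to 27.5 to 39.2 and 25.3 to 35.6 TPM. Of these 3 lists, only the stellate cell and fibroblast sums did not overlap between groups. No marker of these 3 lists was at 0 in all libraries. Of 10 markers in each, 6 stellate cell and fibroblast, 8 macrophage and 6 endothelial markers averaged 1 TPM or more. Cholangiocyte markers summed to 28.5 to 42.2 TPM in CRISPRi and 20.3 to 38.3 TPM in non-targeting mice, lymphocyte and granulocyte markers to 2.88 to 14.7 and 8.23 to 49.1 TPM, and red cell precursor markers to 490 to 1567 and 939 to 3880 TPM. The part of these markers in the results below was not tested. In such bulk samples, fewer cells of a type and less RNA per cell cannot be told apart.

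None of the 10 members passed an adjusted p of 0.05 in limma over all tested genes, where 2 of 10598 genes did (0.0189%). At an unadjusted p below 0.05 there were 2 members, Apon lower and Apoe higher in the CRISPRi mice, against a background of 13.3% (10.1% higher, 3.19% lower). The same 2 members were those whose groups did not overlap in TPM (background 17.1%, of which 12.5% higher and 4.57% lower). Their share of 2 in 10 is thus near the background. The median log2 fold change of the members (TPM + 1, CRISPRi minus non-targeting) was -0.05, with 4 above 0 and 6 below, while all tested genes had a median of 0.18, with 7846 of 10598 above 0 and 2752 below. When libraries were scaled by median of ratios, the all-gene median became 0.0084 and that of the members -0.25. In that fit 1 member had an unadjusted p below 0.05 in limma. Without that scaling, the members ranged from -1.31 for Apon to 0.55 for Apoa4.

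**Figure D1:**
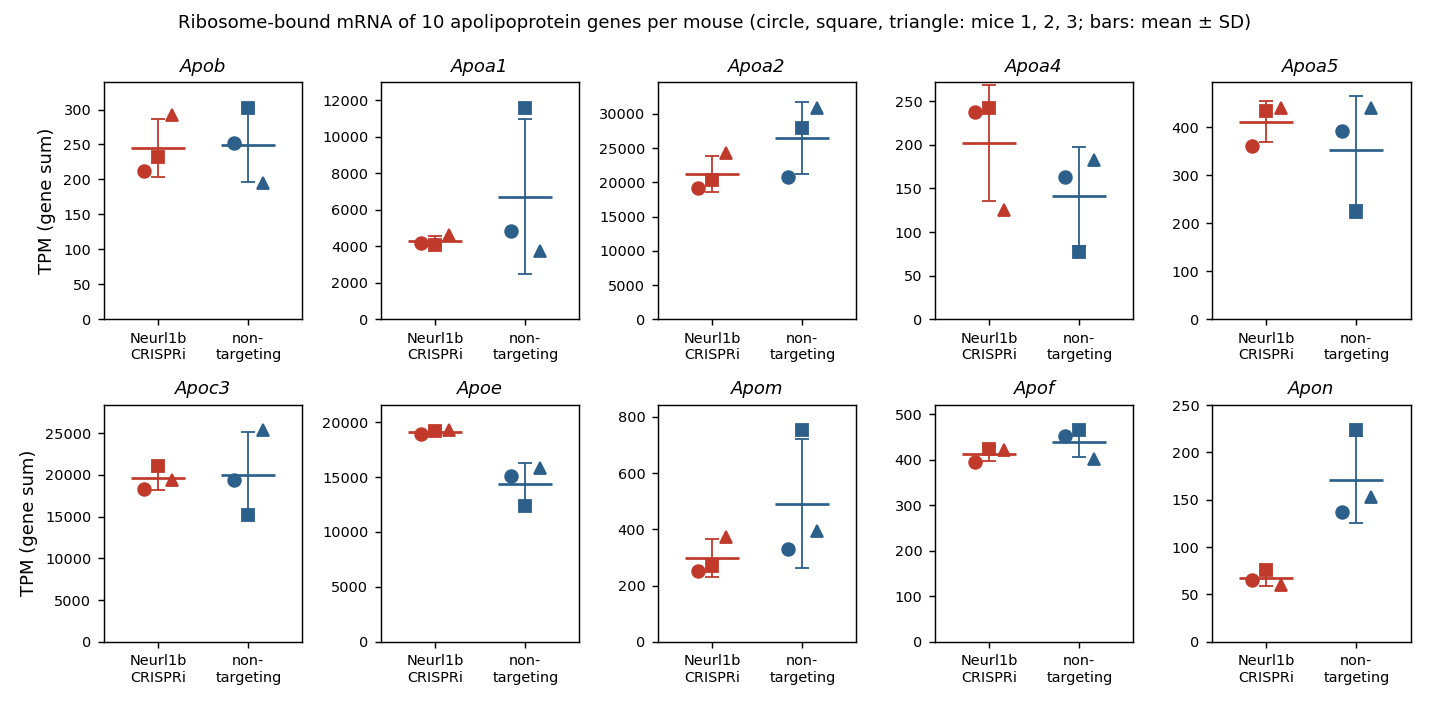
TPM per mouse for each of the 10 genes (y axis from 0, one panel a gene), with circles, squares and triangles for mice 1, 2 and 3 of a group and lines for mean ± SD (n = 3 each). The groups are apart for Apoe, at 18893 to 19269 TPM in CRISPRi and 12343 to 15816 TPM in non-targeting mice, and for Apon, at 60.5 to 76.2 and 137 to 224 TPM, and overlap for the other 8.

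**Figure D2:**
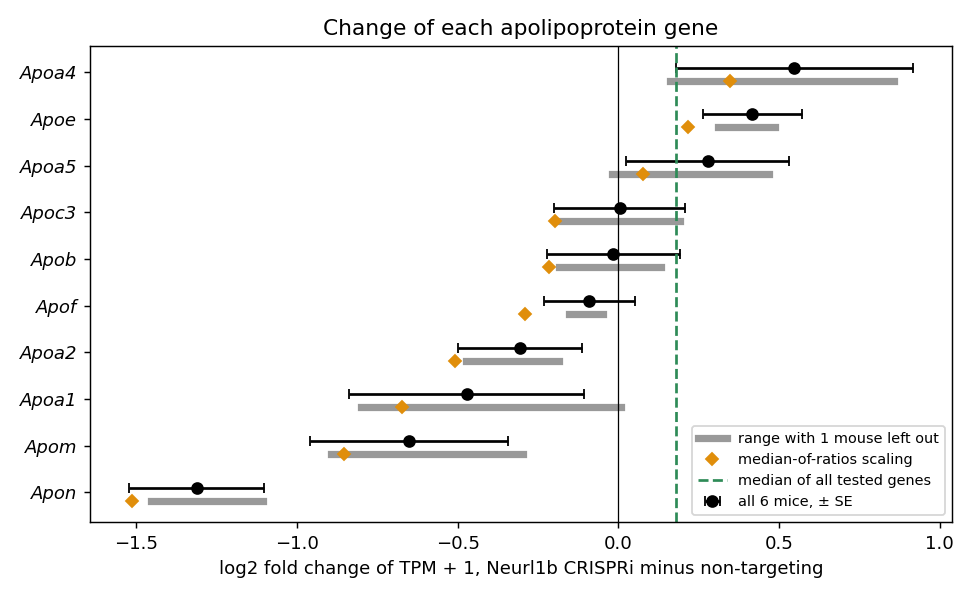
Log2 fold change of TPM + 1 per gene (x axis): black points with SE from all 6 mice, grey bars the range over fits that each leave out 1 mouse, orange diamonds the value with median-of-ratios scaling, and a dashed line at the all-gene median of 0.18. Apon lies at -1.31 with a leave-one-out range of -1.45 to -1.11, while the ranges of Apoa1, Apoa5, Apob and Apoc3 cross 0.

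Apon, the gene for apolipoprotein N, had the smallest p of the members, rank 8 among all tested genes. Its TPM was 64.8, 76.2 and 60.5 in the CRISPRi mice and 137, 224 and 153 in the non-targeting mice. Every CRISPRi mouse was below every non-targeting mouse, and the highest value was that of non-targeting mouse 2. The means were 67.1 ± 8.14 and 171 ± 45.9 TPM (SD, n = 3 each), 2.55-fold lower in the CRISPRi mice. On the log2 scale this was -1.31 (SE 0.21, limma unadjusted p = 2.04e-04, adjusted p = 0.216). The adjusted p was 0.0173 without non-targeting mouse 1, in a fit that called 25.3% of 10558 genes (23.1% higher, 2.24% lower), and lay between 0.191 and 0.564 when any other mouse was left out. It was 0.0307 without that mouse and with median-of-ratios scaling, where 4.59% of genes were called (1.94% higher, 2.66% lower). With array weights, which gave that mouse the lowest weight, Apon had an adjusted p of 0.0232, where 20.9% of genes were called (18.5% higher, 2.33% lower).

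Both annotated Apon transcripts had the direction of the sum. Apon-201, of 2 exons and 1397 nt, was at 40.3, 47.5 and 38.0 TPM in CRISPRi mice and at 82.3, 115 and 72.0 TPM in non-targeting mice. Apon-202, which is unspliced and 1747 nt long, was at 24.5, 28.7 and 22.5 TPM in CRISPRi mice and at 55.1, 109 and 80.9 TPM in non-targeting mice. Apon-202 made up 37.8%, 37.7% and 37.2% of Apon in CRISPRi mice and 40.1%, 48.6% and 52.9% in non-targeting mice. In this share non-targeting mouse 1 was the nearest to the CRISPRi mice, as for the Apoe and Apoa5 transcripts below. Neither transcript's groups overlapped. In the limma fit of 19849 transcripts their log2 fold changes were -1.06 and -1.61 with an adjusted p of 0.500 for both, and no transcript of any gene passed there (0%, with 1937 or 9.76% at an unadjusted p below 0.05). The annotated start of Apon-202 is 19 bases after the RefSeq start of the promoter shown above, and that of Apon-201 is 35 bases before it.

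Apof, the neighbour of Apon, encodes an apolipoprotein known in human plasma as an inhibitor of lipid transfer. It had 395, 423 and 421 TPM in CRISPRi mice and 453.5, 465.5 and 402 TPM in non-targeting mice, and these values overlap (log2 fold change -0.09, SE 0.14, limma adjusted p = 0.741). The ratio of Apon to Apof TPM, which no scaling of the libraries alters, was 0.164, 0.180 and 0.144 in CRISPRi mice and 0.303, 0.480 and 0.381 in non-targeting mice. Timeless and Stat2, on either side of the pair, had log2 fold changes of 0.24 and -0.16.

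The tested genes whose profile over the 6 libraries was nearest to that of Apon were Nat8f2, Cyp2d38-ps and Serpinb8. Their root mean square differences from Apon in centred log2(TPM + 1) were 0.07, 0.14 and 0.16. Nat8f2, of the N-acetyltransferase 8 family, had 44.2, 55.9 and 38.0 TPM in CRISPRi mice and 96.6, 159 and 102 TPM in non-targeting mice. Its order of the mice was the same as that of Apon. Nat8 genes and the pseudogene Cyp2d38-ps have close paralogs, so the division of their reads is uncertain.

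Apoe is the ligand by which remnant particles bind the low density lipoprotein (LDL) receptor and its relatives. Its TPM was 18893, 19234 and 19269 in the CRISPRi mice and 15063, 12343 and 15816 in the non-targeting mice. In TPM, the CRISPRi values lie within a narrow band above all 3 non-targeting values. The means were 19132 ± 208 and 14408 ± 1827 TPM (SD, n = 3 each), 32.8% higher in the CRISPRi mice, with a log2 fold change of 0.42 (SE 0.15, limma adjusted p = 0.344). With median-of-ratios scaling it was 0.22. Apoe is also made by macrophages and stellate cells, whose summed markers are given above. The ratio of Apoe to its neighbour Apoc1 was 0.883, 0.827 and 0.693 in CRISPRi mice and 0.624, 0.422 and 0.418 in non-targeting mice, without overlap. This ratio also holds the change of Apoc1, whose log2 fold change was -0.32. Apoc2 had 0.37, near that of Apoe, and relative to Apoc2 the Apoe values of the groups overlapped.

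The transcripts of Apoe did not follow the sum evenly. Apoe-202, a non-coding transcript, was at 2102, 968 and 914 TPM in the CRISPRi mice and at 1065, 4.31 and 3.92 TPM in the non-targeting mice. It was thus at 914 TPM or more in 4 libraries, non-targeting mouse 1 among them, and at 4.31 TPM or less in non-targeting mice 2 and 3. Apoe-202 differs from the coding transcript Apoe-201 at its end by the removal of 386 bases inside the last exon, which begin with GT and end with AG, joined at the junction printed above. The fitted log2 difference was 5.34 (SE 2.02, limma adjusted p = 0.500). The sum of the remaining Apoe transcripts was 16791, 18266 and 18356 TPM in CRISPRi mice and 13998, 12339 and 15812 TPM in non-targeting mice, and these did not overlap either.

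The coding transcript Apoe-201 was at 6910, 5961 and 6151 TPM in CRISPRi mice and at 4783, 2583 and 2231 TPM in non-targeting mice, with no overlap (log2 fold change 1.07, SE 0.29, limma adjusted p = 0.500). Apoe-209 was at 1258, 2334 and 1960 TPM in CRISPRi mice and at 1282, 2924 and 4975 TPM in non-targeting mice. Apoe-206, the most abundant, was at 8349, 9781 and 10043 TPM in CRISPRi mice and at 7709, 6751 and 8532 TPM in non-targeting mice. The groups of Apoe-206 and Apoe-209 overlapped. The transcripts share most of their bases, so their separate levels are estimates by kallisto.

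**Figure D3:**
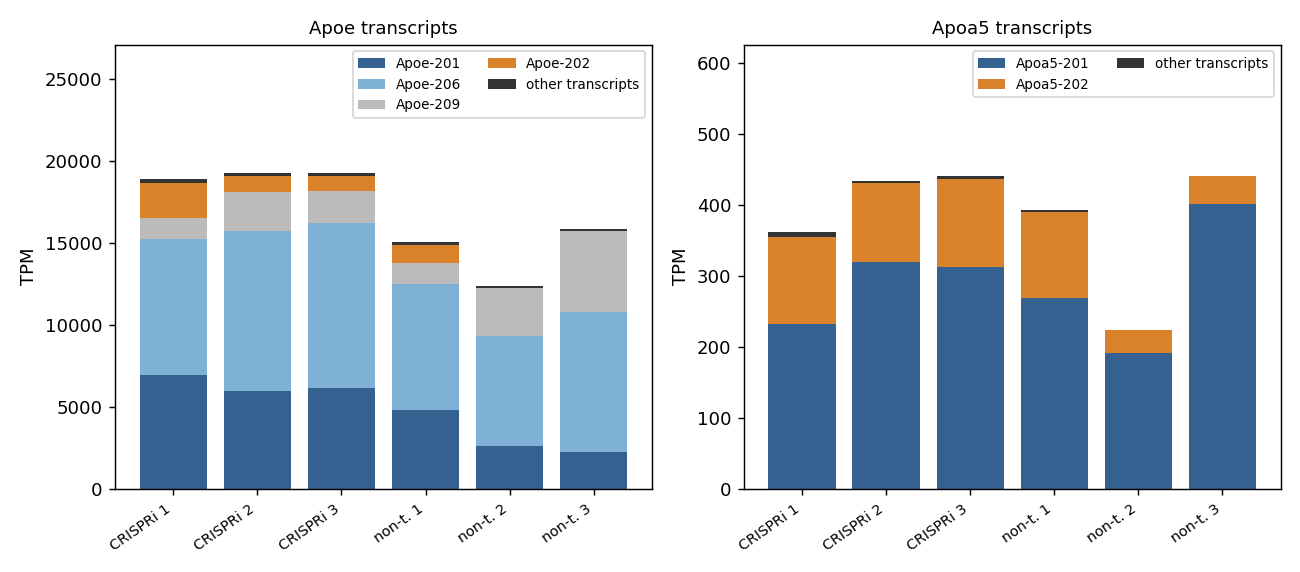
Stacked TPM of the Apoe transcripts (left) and Apoa5 transcripts (right) in each library, with CRISPRi mice 1 to 3 left of non-targeting (non-t.) mice 1 to 3 and both y axes from 0. The orange segments, Apoe-202 and Apoa5-202, stand out in the CRISPRi mice and non-targeting mouse 1, with 914 to 2102 TPM for Apoe-202 and 111 to 125 TPM for Apoa5-202 in these 4 libraries, against at most 4.31 TPM and 32.4 to 40.0 TPM in non-targeting mice 2 and 3.

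Apoa5, whose protein promotes hydrolysis of plasma triglyceride, had 362, 434 and 440.5 TPM in CRISPRi mice and 392.4, 224 and 441 TPM in non-targeting mice. Only non-targeting mouse 2 was low, and the groups overlapped (log2 fold change 0.28, SE 0.25, limma adjusted p = 0.577). Apoa5-202, which starts 445 bases upstream of Apoa5-201 with an added exon of 206 bases, was at 122, 111 and 125 TPM in CRISPRi mice and at 121, 32.4 and 40.0 TPM in non-targeting mice. Its share of the gene was 33.6%, 25.7% and 28.3% in CRISPRi mice and 30.8%, 14.5% and 9.07% in non-targeting mice. Here too non-targeting mouse 1 fell among the CRISPRi values. The rarer Apoa5-203 was at 7.96, 2.80 and 3.43 TPM in CRISPRi mice and at 1.81, 0.671 and 0.644 TPM in non-targeting mice, apart between groups (limma adjusted p = 0.500). Of 32 member transcripts tested, 2 were apart in the higher direction (Apoe-201 and Apoa5-203) and 2 in the lower (both of Apon), against 15.2% of all tested transcripts (10.6% higher, 4.59% lower).

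Apoc3, which slows the clearance of triglyceride-rich particles, had 18365, 21087 and 19383 TPM in CRISPRi mice and 19364, 15141 and 25375 TPM in non-targeting mice. The non-targeting values enclose the CRISPRi values, and the difference on the log2 scale was 0.0043 (SE 0.20, limma adjusted p = 0.991), which became -0.20 with median-of-ratios scaling. Apoa4, a protein of HDL and of triglyceride-rich particles, had 238, 242 and 125 TPM in CRISPRi mice and 163, 76.7 and 183 TPM in non-targeting mice. Its CRISPRi mouse 3 lay between non-targeting mice 1 and 2 (log2 fold change 0.55, SE 0.37, limma adjusted p = 0.473). The log2 fold change was 0.86 without CRISPRi mouse 3 and 0.16 without non-targeting mouse 2.

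For Apoa1 and Apom, which encode HDL proteins, 1 library stood far from the rest. Apoa1 had 4189.5, 4063 and 4613 TPM in CRISPRi mice and 4810, 11582 and 3761 TPM in non-targeting mice. Non-targeting mouse 2 was far above the other 5, and the log2 fold change of -0.47 (SE 0.37, limma adjusted p = 0.526) became 0.0097 without it. Apom, the carrier of sphingosine-1-phosphate on HDL, had 250.1, 268 and 374 TPM in CRISPRi mice and 329, 753 and 394 TPM in non-targeting mice. Its log2 fold change of -0.65 (SE 0.31, limma adjusted p = 0.394) was -0.30 without non-targeting mouse 2. In that mouse Apoa1, Apom, Apon, Apob and Apof were at their highest of the 6 libraries, and Apoc3, Apoa4, Apoa5 and Apoe at their lowest. The ratio of Apoa1 to its neighbour Apoc3 was 0.228, 0.193 and 0.238 in CRISPRi mice and 0.248, 0.765 and 0.148 in non-targeting mice.

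**Figure D4:**
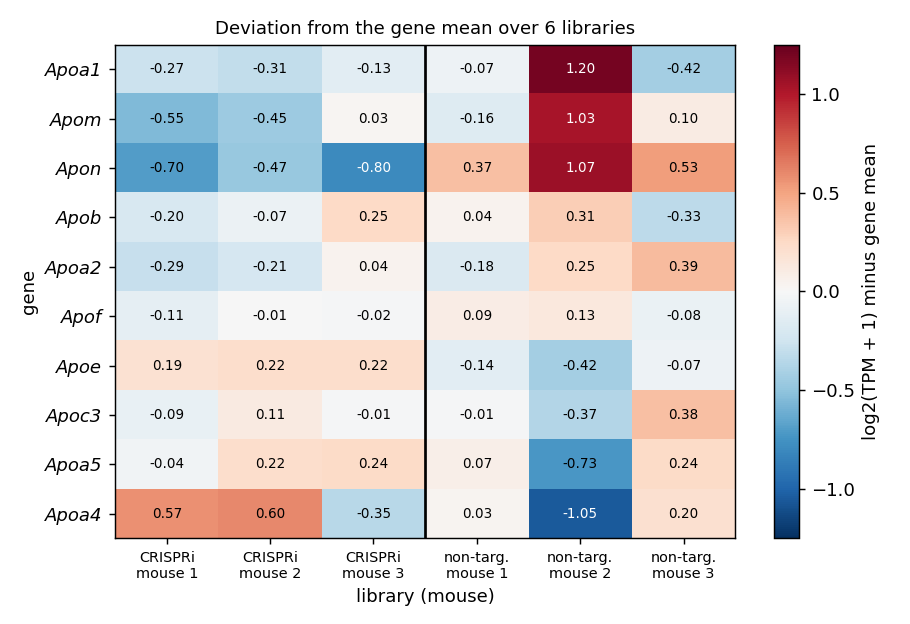
Each cell gives log2(TPM + 1) of a gene (rows) in a library (columns, CRISPRi left of the line) minus the mean of the gene over the 6 libraries, red above and blue below it. Non-targeting mouse 2 holds the extremes, from 1.20 for Apoa1 to -1.05 for Apoa4, and Apon is below its mean in the 3 CRISPRi mice and above it in the 3 non-targeting mice.

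Apoa2 had 19182, 20282 and 24207 TPM in CRISPRi mice and 20712, 27856.5 and 30878 TPM in non-targeting mice. The groups overlapped through non-targeting mouse 1 and CRISPRi mouse 3 (log2 fold change -0.31, SE 0.19, limma adjusted p = 0.457). Apob had 212, 233 and 292 TPM in CRISPRi mice and 252, 303 and 195 TPM in non-targeting mice, which overlapped as well (log2 fold change -0.02, SE 0.21, limma adjusted p = 0.973). Most of the Apob TPM, 91.1% to 92.6% in CRISPRi mice and 91.6% to 95.5% in non-targeting mice, was assigned to Apob-203. That transcript of 2174 nt starts after 88.6% of the span of the 13934-nt transcript Apob-202 and ends at the same base. All 5 exons of Apob-203 overlap exons of Apob-202, so their separate levels are estimates by kallisto. As TPM are divided by transcript length, the Apob sum and its rank depend on this division. Apob-202 was at 18.9, 17.3 and 21.5 TPM in CRISPRi mice and at 21.3, 17.8 and 8.79 TPM in non-targeting mice, lowest in non-targeting mouse 3.

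Other genes whose symbols begin with Apo, together with Clu, Saa1, Saa2 and Saa4, were also compared. Such a symbol does not show that the protein is part of plasma particles. Of 16 listed, 13 were tested, none passed in either direction, 7 had a log2 fold change above 0 and 6 below, and the median was 0.02. Apoc1, an inhibitor of lipoprotein lipase and the most abundant mRNA of the data, averaged 24157 ± 3296 TPM in CRISPRi mice and 30422 ± 6945 TPM in non-targeting mice (SD, n = 3 each). Apoc2, the cofactor of that lipase, averaged 4061 ± 572 and 3193 ± 751 TPM, and Apoc4 averaged 2152 ± 187 and 3138 ± 886 TPM. Apoh, Clu, Apool, Apoo, Apol9a and Apol9b had log2 fold changes of 0.05, 0.13, 0.09, 0.52, 0.02 and -0.42, and the groups of each overlapped. Apol7a was at 28.7, 28.5 and 28.3 TPM in CRISPRi mice and at 24.0, 18.02 and 19.5 TPM in non-targeting mice (limma adjusted p = 0.344). Saa1 and Saa2, acute phase proteins carried on HDL, had log2 fold changes of -2.82 and -3.48 with SEs of 1.13 and 1.17. Their adjusted p in limma was 0.358 and 0.344. Non-targeting mouse 2 was far above the rest, but non-targeting mice 1 and 3 also lay above every CRISPRi mouse. For Saa1 these mice were at 78.6 and 103 TPM, against at most 42.2 TPM in CRISPRi mice. For Saa2 they were at 67.03 and 94.9 TPM, against at most 25.45 TPM in CRISPRi mice. Saa4 had a log2 fold change of -0.63, and its groups overlapped.

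The next lists hold genes that assemble, remodel, take up or regulate lipoproteins. None of the 15 tested genes of Apob particle assembly passed, and 12 had a log2 fold change above 0, with a list median of 0.16 beside 0.18 for all genes. Mia2 and Mia3, which help load large cargo at the endoplasmic reticulum, and the sorting receptor gene Sort1 had log2 fold changes of 0.36, 0.29 and 0.41.

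Among 14 tested lipase, HDL remodelling and lipid transfer genes, 7 lay above 0 and 7 below, none passed, and the median was 0.00129. Abcg1, which exports cholesterol to HDL, was at 3.91, 2.71 and 3.25 TPM in CRISPRi mice and at 1.71, 0.954 and 0.969 TPM in non-targeting mice (log2 fold change 0.97, SE 0.20, limma adjusted p = 0.259). The HDL esterase gene Pon1 had a log2 fold change of -0.55, with an adjusted p of 0.344 in limma. Gpld1, for a phospholipase that circulates on HDL, had 0.60. The groups of these 3 genes, named for their small p, did not overlap. In the list of 14, 2 genes were apart in the higher direction and 2 in the lower, against 12.5% and 4.57% of all tested genes.

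Of 10 tested receptor genes none passed, and the median was 0.24. Vldlr, the VLDL receptor gene, averaged 3.26 ± 0.418 TPM in CRISPRi mice and 1.62 ± 1.15 TPM in non-targeting mice (SD, n = 3 each). Its groups overlapped, as non-targeting mouse 1 was at 2.94 TPM and CRISPRi mouse 2 at 2.91 TPM. Non-targeting mice 2 and 3 were at 0.875 and 1.05 TPM. Lrpap1, the receptor chaperone, had a log2 fold change of -0.42, and its groups did not overlap. The fatty acid receptor gene Cd36 had 0.38. Of 22 regulator genes, 12 lay above 0 and 10 below, with none called. In this list 0 genes were apart in the higher direction and 3 in the lower, against 12.5% and 4.57% of all tested genes. Onecut1, a hepatocyte transcription factor, was at 0.677, 0.659 and 0.524 TPM in CRISPRi mice and at 0.981, 2.08 and 1.99 TPM in non-targeting mice (log2 fold change -0.70, SE 0.20, limma adjusted p = 0.323). Nr1h3, the oxysterol receptor LXR alpha, had a log2 fold change of -0.30, and Foxa3 had -0.40. The groups of Onecut1 and Nr1h3 did not overlap, and those of Foxa3 overlapped.

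Other abundant secreted products of hepatocytes lay mostly below 0, with 18 of 20 and a median of -0.43, and none passed. Itih4, Vtn, Fgg and Ttr had log2 fold changes of -1.78, -0.74, -1.10 and -0.52, and non-targeting mouse 2 had the highest TPM for each. The groups of Itih4, Vtn and Fgg, named for their small p, did not overlap, and those of Ttr overlapped. Fgg was at 488, 551 and 632 TPM in CRISPRi mice and at 883 and 713 TPM in non-targeting mice 1 and 3. In the list of 20, 1 gene was apart in the higher direction and 4 in the lower, against 12.5% and 4.57% of all tested genes. Of genes next to the members, 17 of 20 tested lay above 0, with a median of 0.24 beside 0.18 for all tested genes, which also lay mostly above 0. Zpr1, the gene after Apoa5 on chromosome 9, had 83.6, 79.8 and 65.3 TPM in CRISPRi mice and 45.2, 28.4 and 37.3 TPM in non-targeting mice, which did not overlap (log2 fold change 1.04, SE 0.21, limma adjusted p = 0.259). Pafah1b2, Bcam and Cnpy2 had 0.77, 0.45 and -0.35, with overlapping groups. In this list 1 gene was apart in the higher direction and 0 in the lower, against 12.5% and 4.57% of all tested genes.

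**Figure D5:**
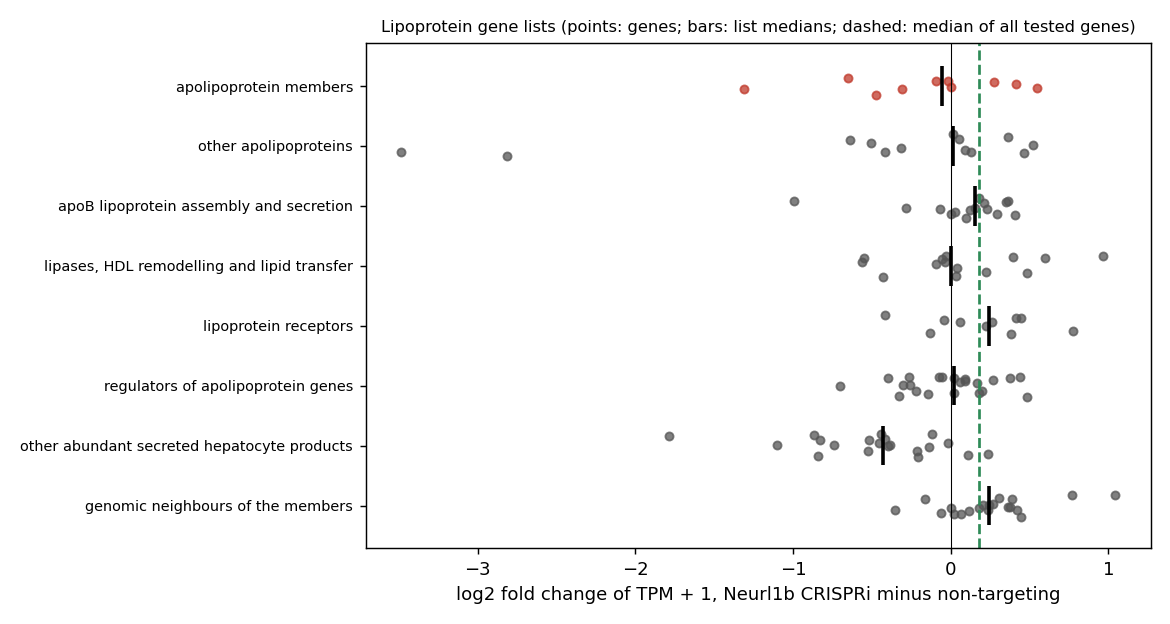
Log2 fold change of TPM + 1 (x axis) of each tested gene (points) in the 10 members (red, top row) and in the 7 other lists (grey), with a black bar at the median of each list and a dashed line at the all-gene median of 0.18. The members have a median of -0.05 and the other secreted products one of -0.43, the lowest of the lists drawn.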

How the data were processed

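Poly(A)-selected RNA from captured ribosomes of 6 livers was sequenced. The deposited values are TPM per transcript, made by the authors with kallisto on build mm39, per the submitters' processing notes; the sources used here give no version, transcript set or filter. Depth cannot be read from TPM, so counting intervals are not given. Transcripts were summed by symbol. Transcripts without one, at 116.0 to 142.6 TPM per library, are left out. Groups were taken from the sample titles, and separate mice are the replicates. The test, for the 10598 genes averaging 1 TPM or more, was limma (version 3.58.1, R 4.3.3) with log2(TPM + 1) as the value (trended prior, two-sided, Benjamini-Hochberg over all of them, threshold 0.05), checked first on simulated data. The simulated libraries were independent and equally variable, with changes larger than those of the members, so they checked the code only. A fold change on this scale understates that of low genes. Members, gene lists and markers were chosen with earlier results of these data known. Named are the 10 members, the tested genes of the list of other apolipoproteins, the 4 genes of smallest p in every other list, and the 3 genes nearest in profile to the member of smallest p; some genes this rule takes are named nowhere and not reported here. Timeless and Stat2 were added for their position, and the transcripts described were chosen after their values were seen. Transcript types, lengths and exons are from GENCODE vM21 (GRCm38), matched by identifier without version, and promoters and gene order from RefSeq (GRCm38.p6), both of another build than the table. Mouse numbers were not used to pair the samples in the main test, and the titles do not say whether they do. Alternatives were other pseudocounts, filters, scalings, priors, weights, a mouse-number block, each mouse left out, and a transcript-level test.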

Additional observations from a re-analysis of the deposited data

How the results depend on the processing

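With all 6 mice weighted equally, no member passed an adjusted p of 0.05 in limma, nor one of 0.1 in the fit without a replicate block. With array weights 3 members passed, Apoe (adjusted p = 0.0459), Apom (0.0409) and Apon (0.0232), where 2210 genes did (20.9%) and non-targeting mouse 1 had a weight of 0.164 against 0.823 to 5.60 in the other libraries. With 1 mouse left out, 0 to 1 member and 0 to 2673 genes passed, the highest of both without non-targeting mouse 1, where the member was Apon. Leaving out non-targeting mouse 1 with median-of-ratios scaling, chosen after seeing the data, gave 1 member (Apon, adjusted p = 0.0307) and 484 genes, while leaving out mouse 2 or 3 of that group instead gave 0 genes (874 and 1098 at an unadjusted p below 0.05). The count of genes, 2 otherwise, was 0 with a pseudocount of 5 (1404 at an unadjusted p below 0.05), no filter (2132), quantile normalization (1403) or the transcript-level test (1937), and 1 with a mean TPM of at least 5. The median of the members, -0.05, was -0.25 with median-of-ratios scaling, between -0.17 and -0.0039 with 1 mouse left out, and -0.37, -0.18 and -0.30 with that scaling and without non-targeting mouse 1, 2 or 3. The cause of these differences was not tested. The mouse number as a replicate block left 2 genes and 0 members (Apon adjusted p = 0.0734). Same-numbered mice had correlations of 0.061, -0.096 and -0.28 across genes in their deviations from group means. Differently numbered mice had -0.17 to 0.22. Deviations sum to 0 within a group of 3, so these values cannot decide whether the numbers pair mice.

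Of 200 values of members under alternatives, 181 kept direction and side of the threshold, 5 newly passed and 14 changed sign. Apoc3 was -0.20 with median-of-ratios scaling, -0.025 rescaled without abundant genes, -0.05 without CRISPRi mouse 2, -0.0016 and -0.18 without mouse 1 and mouse 2 of the non-targeting group, and -0.34 and -0.32 when the scaling was added to these 2. Apob was 0.08 and 0.02 without CRISPRi mouse 1 and 2, and 0.0029 and 0.13 without non-targeting mouse 1 or 2. Without non-targeting mouse 2, Apoa1 was 0.0097 and Apoa5 -0.019, or -0.16 with the scaling. With 1 mouse left out Apoa1 ranged from -0.80 to 0.0097, Apoa5 from -0.019 to 0.47, Apoc3 from -0.18 to 0.19 and Apob from -0.18 to 0.13. Apon kept its direction in all 20 alternatives, from -1.79 to -1.11, as did Apoe from 0.12 to 0.49, Apom, Apoa2, Apoa4 and Apof. Depth could not be read from TPM, so the precision of low values is unknown.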
